A study of Mus musculus with 2 samples.

Results

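The ATP-binding cassette (ABC) genes were taken as the nuclear protein-coding genes of the mouse whose symbol consists of Abc, a subfamily letter from a to g and a number, with or without a final letter. The rule took 50 of 21461 nuclear protein-coding genes present in both gene tables. It does not take Tap1, Tap2 and Cftr, ABC genes named otherwise. Liver RNA longer than 200 nucleotides was sequenced from adult C57BL/6J mice of 8 weeks in 2 libraries, biological replicates 1 and 2, with spiked-in control RNAs. No treatment, transgene or other genotype is given, the sex was not collected, and both libraries form 1 group. The libraries carry separate biosamples but the same donor identifier, so the spread between them may be partly technical. With 1 group of 2 there is no contrast to test, and no p-value is given.

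ABC proteins couple the binding and hydrolysis of ATP to movement of a substrate across a membrane, mostly outward from the cytosol. In hepatocytes, pumps of the apical (canalicular) membrane put bile salts, phospholipid, sterols and conjugates into bile, while relatives in the basolateral membrane send conjugates, sterol and ATP to the blood side. Other members sit in mitochondria, peroxisomes and lysosomes, and those of subfamilies e and f have no membrane domain and act on ribosomes and translation.

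The promoters of 4 members whose levels recur in the results are printed 5′ to 3′ on the strand of the gene, each running from 250 bases before a RefSeq start site to 50 after it, in the GRCm38.p6 build. Abcb11 and Abcc2 were the highest members, Abcd3 was the highest outside the pump lists, and the Abcg8 window holds a start of Abcg5 on the opposite strand as well. In Abcb11 (chr2:69342567-69342866, minus strand) and Abcc2 (chr19:43782058-43782357, plus strand) the capitals mark the letters AGGTCA, the core motif of many nuclear receptors, which in Abcb11 reads on the opposite strand as TGACCT. Abcd3 (chr3:121815253-121815552, minus strand) has no match and no capitals. In Abcg8 (chr17:84682871-84683170, plus strand) the capitals mark the 109 bases between the start of Abcg5 and that of Abcg8.
Abcb11: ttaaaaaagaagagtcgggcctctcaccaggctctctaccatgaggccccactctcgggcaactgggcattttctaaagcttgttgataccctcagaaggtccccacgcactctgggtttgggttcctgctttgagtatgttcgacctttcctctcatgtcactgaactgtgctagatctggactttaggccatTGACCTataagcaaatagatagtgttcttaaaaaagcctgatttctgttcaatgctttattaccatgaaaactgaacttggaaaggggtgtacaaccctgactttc
Abcc2: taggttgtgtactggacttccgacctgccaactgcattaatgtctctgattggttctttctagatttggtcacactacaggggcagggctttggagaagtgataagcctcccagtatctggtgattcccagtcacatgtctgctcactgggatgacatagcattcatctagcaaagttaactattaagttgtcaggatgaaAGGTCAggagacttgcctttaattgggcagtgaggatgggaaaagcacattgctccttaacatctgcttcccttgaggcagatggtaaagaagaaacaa
Abcd3: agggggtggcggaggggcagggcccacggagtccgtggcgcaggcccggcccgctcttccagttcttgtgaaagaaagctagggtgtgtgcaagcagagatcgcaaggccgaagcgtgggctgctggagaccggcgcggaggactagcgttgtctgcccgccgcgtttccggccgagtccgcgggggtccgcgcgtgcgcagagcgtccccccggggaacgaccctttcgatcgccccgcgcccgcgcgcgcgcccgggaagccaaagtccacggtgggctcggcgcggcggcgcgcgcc
Abcg8: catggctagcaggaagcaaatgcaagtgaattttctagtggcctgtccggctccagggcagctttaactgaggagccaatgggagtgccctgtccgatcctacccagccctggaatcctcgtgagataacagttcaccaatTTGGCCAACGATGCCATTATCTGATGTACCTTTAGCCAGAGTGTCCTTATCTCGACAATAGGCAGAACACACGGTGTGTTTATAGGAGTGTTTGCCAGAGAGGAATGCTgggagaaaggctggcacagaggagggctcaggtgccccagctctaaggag

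RefSeq windows were found for 38 of the 50 members, 45 windows in all because some genes have several starts. AGGTCA, searched on both strands, was present in 7 of the 45 member windows (15.6%) and in 16.3% of all 32851 windows. It fell in windows of Abcb11, Abcc2, Abcg2, Abcb6 and Abcc10. TATAAA, searched likewise, was in 15.6% of member windows and 13.6% of all windows, and lay in windows of both Abcg5 and Abcg8, which share 209 bases. GTTAAT, the core of the motif of hepatocyte nuclear factor 1, was in 0 of 45 member windows and in 7.10% of all windows. The median window held 16 CpG dinucleotides among the members and 7 among all genes. The windows differ plainly in this: Abcc2 held 1 CpG, Abcb11 4 and Abcg5 5, whereas Abcb4 held 21 and the starts of Abcd3 42 and 45. These letters are descriptions of the windows, and no binding or methylation was measured.

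Nuclear protein-coding genes received 56580185 expected counts in replicate 1 and 51586893 in replicate 2, of which ABC genes took 410797 and 367881. Levels are given as TPM, an abundance scaled for transcript length, recomputed over nuclear protein-coding genes alone. In the deposited TPM that class held 10.96% of endogenous TPM in replicate 1 and 15.06% in replicate 2. Hepatocyte markers were high in both libraries (Alb 63649 and 73251 TPM in replicates 1 and 2), and cholangiocyte markers summed to 46.1 and 34.3 TPM. Of the cholangiocyte list, Krt7, Sox9 and Cftr were under 1 TPM. Spp1 had 39.7 and 29.7 TPM and so most of the sum, Krt19 had 4.49 and 2.80 TPM and Epcam 1.28 and 1.13 TPM. Markers of adrenal cortex, pancreatic acinus and skeletal muscle stood apart between the libraries. The adrenal list summed to 1.65 TPM in replicate 1 and 91.7 in replicate 2, the pancreatic list to 1075 and 189, and the muscle list to 42.9 and 1.60. In bulk RNA, fewer cells of a type and less RNA per cell cannot be told apart.

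The family was widely present in liver, with a few genes holding most of it. Of the 50 members, 37 (74%) had 1 TPM or more in both libraries, against 51.9% of all nuclear protein-coding genes. The median member stood at 11.3 TPM in both libraries, and the median of all genes at 1.56 TPM in replicate 1 and 1.80 in replicate 2. Together the members made up 0.317% and 0.321% of nuclear protein-coding TPM in replicates 1 and 2, a mean of 0.319% ± 0.00341 (SD, n = 2). The 3 highest members held 47.7% of family TPM in replicate 1 and 45.7% in replicate 2, and the 10 highest held 81.1% and 80.3%. At 100 TPM or more in both libraries were 8 members, and at under 1 TPM in both were 12.

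**Figure D1:**
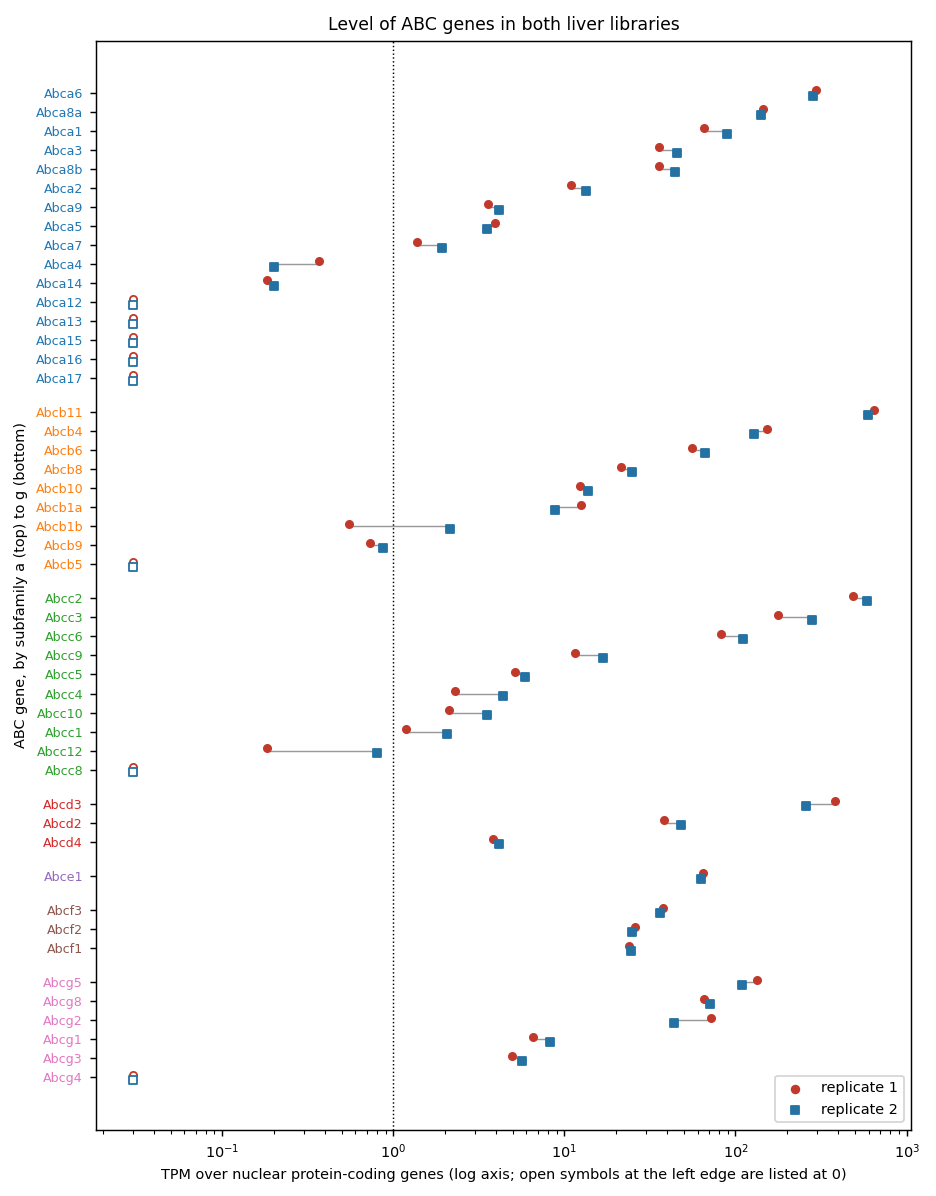
Level of ABC genes in replicate 1 (red circles) and replicate 2 (blue squares), in TPM over nuclear protein-coding genes on a log axis, grouped by subfamily, with open symbols for genes listed at 0. Abcb11 and Abcc2 lie farthest right, and the dotted line at 1 TPM crosses between the points of Abcb1b.

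Abcb11, the bile salt export pump, was the highest member, with 646 TPM in replicate 1 and 595 TPM in replicate 2 (85755 and 67097 expected counts). Its mean of 620 ± 35.6 TPM (SD, n = 2) ranked 245 among all nuclear protein-coding genes. Abcc2, which exports bilirubin glucuronide and other conjugates into bile, had 485 and 589 TPM, a mean of 537 ± 73.4 (SD, n = 2). Abcb11 was above Abcc2 by 1.33-fold in replicate 1 and 1.01-fold in replicate 2, so their order was not separated beyond the spread by gene-level TPM. In protein-coding transcripts alone it was, with Abcb11 at 518 and 458 TPM and Abcc2 at 204 and 229 TPM. Abcd3, a peroxisomal importer of branched-chain fatty acids and bile acid precursors, followed at 379 and 258 TPM. Abca6, a gene with no settled substrate, had 295 and 285 TPM. These 2 genes changed places between the libraries, because Abcd3 was above Abca6 in replicate 1 and below it in replicate 2.

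Of the canalicular pumps, 7 of 8 were detected, that is, had 1 TPM or more in both libraries. Abcb4, the flippase that puts phosphatidylcholine into bile, had 152 TPM in replicate 1 and 128 in replicate 2, so Abcb11 was 4.25-fold and 4.66-fold above it. Abcg5 and Abcg8, which pair to form the biliary sterol exporter, had 133 and 109 TPM (Abcg5) and 65.2 and 71.0 TPM (Abcg8). Abcg5 thus exceeded its partner by 2.04-fold in replicate 1 and 1.53-fold in replicate 2. Abcg2, an exporter of urate, porphyrins and drugs, had 72.1 TPM in replicate 1 and 43.4 in replicate 2, and its points lay farther apart than those of the sterol pair. The P-glycoprotein genes were the lowest of the list: Abcb1a had 12.5 and 8.80 TPM, and Abcb1b 0.55 and 2.13 TPM.

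All 6 basolateral pumps were detected, and each was higher in replicate 2. Abcc3, which returns glucuronides and bile salts to blood, led them with 178 TPM in replicate 1 and 279 in replicate 2. Abcc6, needed for ATP release from liver and lost in pseudoxanthoma elasticum, had 82.4 and 110 TPM. Abca1, which loads cholesterol and phospholipid onto apolipoprotein A-I, had 65.2 and 88.8 TPM. The remaining 3 were far lower in both libraries: Abcc5, an exporter of cyclic nucleotides, had 5.13 and 5.87 TPM, Abcc4, an exporter of bile salts with glutathione, 2.29 and 4.40 TPM, and Abcc1, a glutathione conjugate pump, 1.19 and 2.07 TPM. In protein-coding transcripts alone Abcc5 had 1.28 and 1.60 TPM and so was below Abcc4, which kept 2.29 and 4.40 TPM.

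Summed over each list, canalicular pumps held 1566 TPM against 334 TPM for basolateral pumps in replicate 1, and 1546 TPM against 490 TPM in replicate 2. Canalicular pumps were thus 49.4% and 48.1% of family TPM, and basolateral pumps 10.6% and 15.3%. The canalicular sum exceeded the basolateral one by 4.69-fold in replicate 1 and 3.15-fold in replicate 2, a mean log2 ratio of 1.94 ± 0.40 (SD, n = 2). Ratios of the list medians were smaller, 2.91-fold and 1.90-fold. Abcb11 and Abcc2 hold most of the canalicular sum. The lists overlap gene by gene: Abcc3 was above Abcg8 in both libraries, and Abcb1b was below Abcc6 in both.

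**Figure D2:**
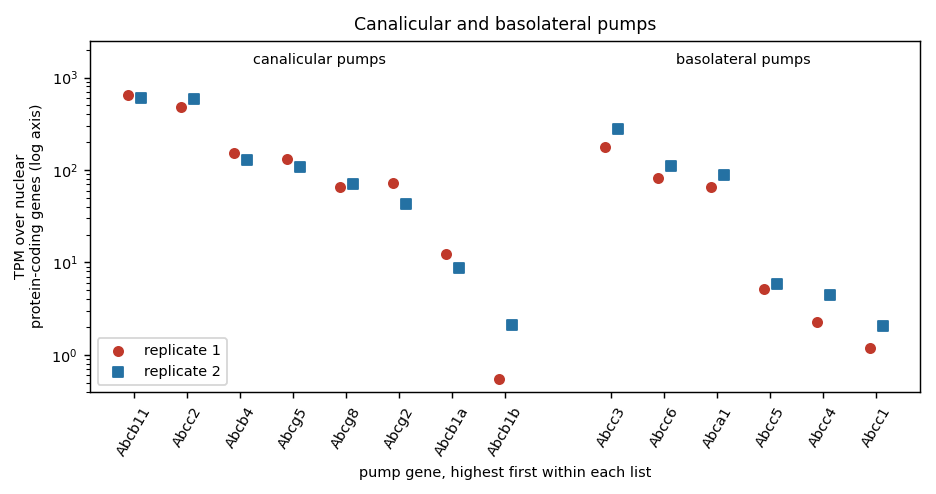
Level of the 8 canalicular pumps (left) and the 6 basolateral pumps (right) in replicate 1 (red circles) and replicate 2 (blue squares), in TPM over nuclear protein-coding genes on a log axis. All 6 basolateral pumps lie higher in replicate 2, and the canalicular pumps run from 646 TPM for Abcb11 to 0.55 TPM for Abcb1b in replicate 1.

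The libraries also differed in markers of the 2 ends of the liver lobule. The pericentral list (Glul, Cyp2e1, Oat, Rgn, Slc1a2) summed to 8742 TPM in replicate 1 and 5943 in replicate 2, with 5 of 5 genes higher in replicate 1. The periportal list (Ass1, Hal, Pck1, Sds, Cps1) summed to 9877 and 11875 TPM, with 4 of 5 genes higher in replicate 2 and Pck1 the exception. The part of this in the ratio of canalicular to basolateral pumps was not tested.

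By subfamily, b and c held the largest shares of family TPM. Subfamily b had 7 of 10 members detected and 29.6% and 27.1% of family TPM in replicates 1 and 2, most of it from Abcb11. Subfamily c had 8 of 10 detected and 24.2% and 31.5%, so c was below b in replicate 1 and above it in replicate 2. Subfamily a, the largest with 16 members and the one with the most members not detected, had 9 detected and 18.8% and 19.5% of family TPM. Subfamily d, with 4 of 4 detected, held 13.6% and 9.93%, mostly Abcd3. Subfamily g had 5 of 6 detected and 8.89% and 7.37%, f had 3 of 3 and 2.76% and 2.66%, and e, which is Abce1 alone, 2.05% and 1.96%.

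Among organelle genes, the peroxisomal Abcd3 stood above the others. Abcd2, a peroxisomal importer of very long-chain fatty acids, had 38.5 TPM in replicate 1 and 48.2 in replicate 2, so Abcd3 was 9.86-fold and 5.35-fold above it. Of the mitochondrial genes, Abcb6, linked to porphyrin transport, had 55.8 and 66.3 TPM. Abcb8, linked to mitochondrial iron export, had 21.3 and 24.9 TPM, and Abcb10, which supports heme synthesis, had 12.4 and 13.8 TPM. The ranges of these 3 did not overlap between genes. Of the lysosomal genes, Abca2 (11.0 and 13.4 TPM) and the cobalamin exporter Abcd4 (3.85 and 4.14 TPM) were detected, and the peptide transporter Abcb9 (0.73 and 0.87 TPM) was not.

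The members without a membrane domain had close levels in both libraries. Abce1, which splits ribosomes for reuse, had 65.0 TPM in replicate 1 and 63.0 in replicate 2. Abcf3 had 37.9 and 36.1 TPM, Abcf2 25.7 and 24.9 TPM, and Abcf1, a translation initiation factor, 23.9 and 24.5 TPM. The largest log2 ratio between libraries in this group was 0.23, for Abcf3.

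Of the sterol and phospholipid genes, 6 of 7 were detected. Besides those already given, Abcg1, which passes cholesterol to high-density lipoprotein and is a macrophage gene as well, had 6.59 TPM in replicate 1 and 8.27 in replicate 2. Abca7, a phospholipid exporter related to Abca1, had 1.37 and 1.93 TPM, and Abcg4, known from brain, was listed at 0 with 0 and 2 counts. Kupffer cell markers summed to 387 and 317 TPM, with Cd5l and Clec4f higher in replicate 1 and Adgre1, Csf1r and Marco, like Abcg1, higher in replicate 2, and their part in the Abcg1 level was not tested. Of the sulfonylurea receptors, subunits of potassium channels, Abcc9 had 11.5 and 16.7 TPM and the pancreatic islet form Abcc8 had 0 and 2 counts. Abcc9 is known from vessel walls and pericytes, and the markers of stellate cells, the pericytes of liver, summed to 290 and 321 TPM, with all 5 detected. Dcn, the largest of them, had 173 and 178 TPM. Des was higher in replicate 1, and Reln, Rgs5 and Lrat, like Abcc9, were higher in replicate 2. The part of stellate cells in the Abcc9 level was not tested. Abca3, known for surfactant lipid in lung, had 35.6 and 45.8 TPM, and Abcg3, a rodent gene, 4.94 and 5.67 TPM with a posterior SD of 0 on its counts.

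Abca15, Abca16 and Abcb5 had no count in either library. A count of 0 allows, at 3 counts, up to 0.0207 TPM in replicate 1 and 0.0236 in replicate 2 for Abca15, and up to 0.0492 and 0.0558 TPM for Abcb5. Abca12, a skin lipid transporter, had 2 and 0 counts, Abca13 1 and 3, and Abca17 1 and 1, and all were listed at 0 TPM. Abca4, the retinal transporter, had 15 and 16 counts, Abca14 16 and 12, and Abcc12 18 and 62. These limits cover counting error only.

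ABC genes that lie side by side had unlike levels. On chromosome 11, 5 genes of subfamily a follow each other on the minus strand in the order Abca8b, Abca8a, Abca9, Abca6, Abca5 (mm10, chr11:109932190-110337716). Abca6 and Abca8a were high, at 295 and 285 TPM and at 145 and 140 TPM, while Abca9, which lies between them, had 3.57 and 4.14 TPM and Abca5 3.94 and 3.53 TPM. Abca6 was thus 82.5-fold and 68.9-fold above Abca9, and 74.8-fold and 80.5-fold above Abca5. Abca8a was 4.08-fold and 3.19-fold above Abca8b, with which it shares 78.7% of aligned coding bases. Identity to Abca8a was 75.4% for Abca9, 72.5% for Abca6 and 68.4% for Abca5, and no posterior SD of these counts was above 0.

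On chromosome 5, Abcb1a, Abcb1b and Abcb4 follow each other on the plus strand, and Abcb4 was 12.2-fold and 14.5-fold above Abcb1a. The coding sequences of Abcb1a and Abcb1b have 89.3% identity over 3799 aligned bases, and that of Abcb1a and Abcb4 79.3%. On chromosome 17, Abcg5 and Abcg8 run in opposite directions and overlap by 6710 bases in GENCODE M21, whose models start Abcg8 upstream of the RefSeq start shown above. RefSeq also has a start of Abcg8 at that upstream position, 84676302. Whether the counts were made by strand is not given in the sources used here, so reads in that overlap may be shared. In all, 6 of the 37 detected members overlap a counted gene on the opposite strand, and 2 overlap one on the same strand. Abcb6 is among the latter, sharing 8662 bases with a gene of 158 and 204 counts. The posterior SDs of the Abcb6 counts were 10.1 and 11.3.

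**Figure D3:**
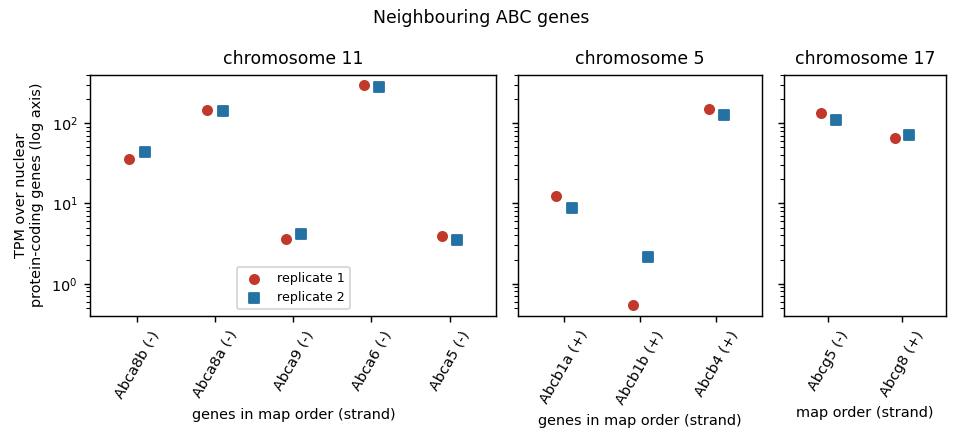
Levels of neighbouring ABC genes on chromosomes 11, 5 and 17 in map order, with the strand in brackets, in replicate 1 (red circles) and replicate 2 (blue squares), in TPM over nuclear protein-coding genes on a log axis. Abca9 and Abca5 stand near 4 TPM beside Abca6 near 290 TPM.

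Among ABC genes with a mean of 1 TPM and 10 counts or more, Abcb1b differed most between libraries. The start of its coding sequence is therefore set beside that of Abcb1a, the copy with which its reads could be confused. Both stretches are the first 120 coding bases, 5′ to 3′, of GENCODE M21 transcripts on chromosome 5, with the 15 bases that differ in capitals.
Abcb1a: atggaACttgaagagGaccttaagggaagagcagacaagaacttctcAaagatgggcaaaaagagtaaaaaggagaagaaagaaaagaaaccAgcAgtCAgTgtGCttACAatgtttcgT
Abcb1b: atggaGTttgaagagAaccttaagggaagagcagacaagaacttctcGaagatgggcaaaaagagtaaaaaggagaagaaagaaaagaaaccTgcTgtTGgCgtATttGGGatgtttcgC

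Abcb1b received 83.6 counts in replicate 1, against 264 in replicate 2, with posterior SDs of 1.59 and 3.16, and Abcb1a had 1934 and 1284 counts with the same posterior SDs. The pair moved in opposite directions, since Abcb1a was higher in replicate 1. On the scale of log2(TMM-scaled CPM + 0.5), replicate 1 minus replicate 2, which is used for all ratios between libraries here, Abcb1b was at -1.38 and Abcb1a at 0.49. This scale understates the ratio of low genes. The adrenal gland is a known site of Abcb1b expression in mice, and adrenal markers were higher in replicate 2 for 5 of 5 genes. Hsd3b1 had 33 counts in replicate 1 and 1684 in replicate 2, and Cyp11a1 0 and 379. The part of adrenal RNA in the Abcb1b ratio was not tested.

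Abcb1b was the only member over 2-fold apart, out of 38 measured, that is, with a mean of 1 TPM and 10 counts or more. By direction, 0 members were over 2-fold higher in replicate 1, against 1.41% of all measured genes, and 1 was over 2-fold higher in replicate 2, against 1.12%. In either direction the share of all 11478 measured genes was 2.54%, so 1 of 38 is near the background. The median ratio of the members was -0.07 and that of all measured genes 0.00, and the median size of the ratio was 0.26 and 0.22. The coefficient of variation that edgeR names biological was 0.237 over 14703 mouse genes, taken from all classes and not from protein-coding genes alone. With a shared donor identifier it may be partly technical.

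Subfamily c leaned to replicate 2. All 8 measured members had a higher level there, with a median ratio of -0.39, from -0.07 for Abcc2 to -0.81 for Abcc4. Abcc3 was at -0.65, Abcc10, a multidrug exporter, at -0.69 and Abcc9 at -0.43. The direction held for 8 of 8 under each of the 7 scalings tried. Subfamily a had a median of -0.17 (6 of 9 higher in replicate 2), b 0.10 (4 of 8), d 0.03 (2 of 4) and g -0.02 (3 of 5), and 0 of the 4 genes of e and f were higher in replicate 2. These counts moved with the scaling, from 5 to 9 of 9 for a, 2 to 7 of 8 for b, 1 to 3 of 4 for d, 2 to 4 of 5 for g and 0 to 4 of 4 for e and f together. Among all measured genes 49.5% were higher in replicate 2, and among the ABC genes 60.5%. The latter is 23 of 38 genes and includes the 8 of subfamily c.

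Basolateral pumps leaned to replicate 2, whereas canalicular pumps were mixed. The canalicular median was 0.31, with 5 of 8 higher in replicate 1, against 5791 of all 11478 measured genes. Those higher were Abcg2 at 0.74, Abcb1a at 0.49, Abcg5 at 0.38, Abcb4 at 0.35 and Abcb11 at 0.27. Abcg8 was at -0.02, Abcc2 at -0.07 and Abcb1b, the largest ratio of the list, at -1.38. The basolateral median was -0.34, with 6 of 6 higher in replicate 2. All of these but Abca1 belong to subfamily c, so this lean and that of the subfamily rest largely on the same genes. Under the 7 scalings, 6 of 6 basolateral pumps stayed below the median of all genes, and 5 or 6 of 8 canalicular pumps stayed above it. The TMM, DESeq2 and spike-in scalings differ by a nearly constant shift of all genes, as do the TPM scalings. Such a shift can hardly change a count taken against that median, so the 7 are not separate checks of it. Counted against 0 instead, 4 of 8 canalicular pumps were higher in replicate 1 under spike-in scaling and 2 of 8 by the deposited TPM. Outside these lists, Abcd3 at 0.65 was the highest ratio.

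**Figure D4:**
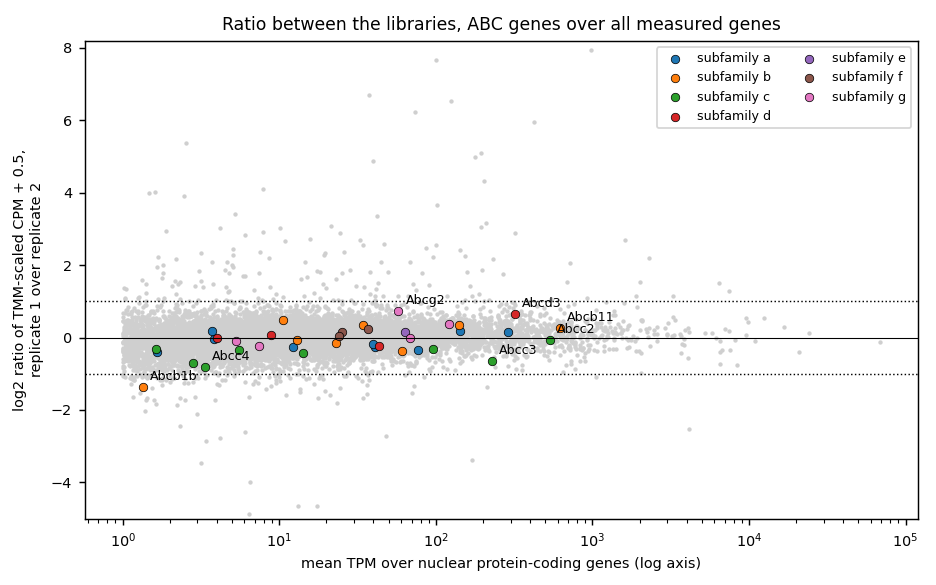
Log2 ratio of TMM-scaled CPM + 0.5, replicate 1 over replicate 2, against mean TPM (log axis) for the 38 measured ABC genes, coloured by subfamily, over all 11478 measured genes in grey. Abcb1b at -1.38 is the only ABC gene outside the dotted lines of 2-fold, and all 8 genes of subfamily c lie below 0.

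Among 27 partner genes were receptors and other transcription factors, bile salt and anion carriers, and the flippase Atp8b1 with its subunit. The rest were a copper pump, membrane anchors and a peroxin. Of the 27, 26 were measured and 0 were over 2-fold apart, near the 2.54% of all measured genes. Their log2 ratios ran from -0.91 to 0.97. The highest were the uptake carriers Slco1b2, with 1571 TPM in replicate 1 and 863 in replicate 2, Slc10a1, the sodium-dependent bile salt carrier, with 497 and 384 TPM, and Slco1a4 with 260 and 373 TPM. Of the receptors and other transcription factors, examples went both ways. Nr1h4, the bile acid receptor that drives Abcb11, had 167 and 130 TPM, and Nr1i3 263 and 178 TPM. Hnf4a had 163 and 212 TPM, and Nr0b2 25.5 and 52.3 TPM. Their part in the levels of the pumps was not tested. Slc51a, a subunit of the basolateral organic solute transporter, had no count in either library. In this list 17 genes were higher in replicate 1 and 9 in replicate 2, with a median ratio of 0.07. Over all measured genes, 49.5% were higher in replicate 2.

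The transcript tables divide each gene among its GENCODE models. All 37 detected members had the same main transcript in both libraries, against 90.9% of all detected genes, and 7 of them have a single model. By TPM, 2 members, Abcc2 and Abcc5, had under 50% in models of the protein-coding class in both libraries, against 6.28% of all detected genes. Abcc2, Abcc5 and Abcf3 had 20% or more in retained-intron models in both, against 11.1%.

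For Abcc2, TPM and counts gave opposite pictures. The full-length model Abcc2-201 (8027 nt) took 38.3% of gene TPM in replicate 1 and 34.9% in replicate 2, but 91.9% and 90.4% of gene counts. Retained-intron models took 58.0% and 61.0% of TPM but 6.16% and 7.32% of counts, and the main ones are only 566 nt and 531 nt long. A short model receives a large TPM from few counts. The same held in Abcb11, where a processed transcript of 648 nt took 19.8% and 23.0% of TPM and 2.25% and 2.76% of counts, and in Abcc3, where one of 567 nt took 36.7% and 31.4% of TPM and 4.30% and 3.52% of counts. In Abcc5 the counts themselves lay in retained-intron models, at 75.8% and 75.5%.

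With protein-coding models alone, Abcd3 stood at 379 TPM in replicate 1 and 258 in replicate 2, Abca6 at 284 and 269 and Abcc3 at 107 and 181. Abcc3 was then below Abcb4 (152 and 128 TPM) in replicate 1. Abcc2 was then the fourth member and not the second. Canalicular pumps summed to 1138 TPM against 238 TPM for basolateral pumps in replicate 1, and to 1041 TPM against 359 TPM in replicate 2. The resulting 4.78-fold and 2.90-fold were close to the values over whole genes.

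**Figure D5:**
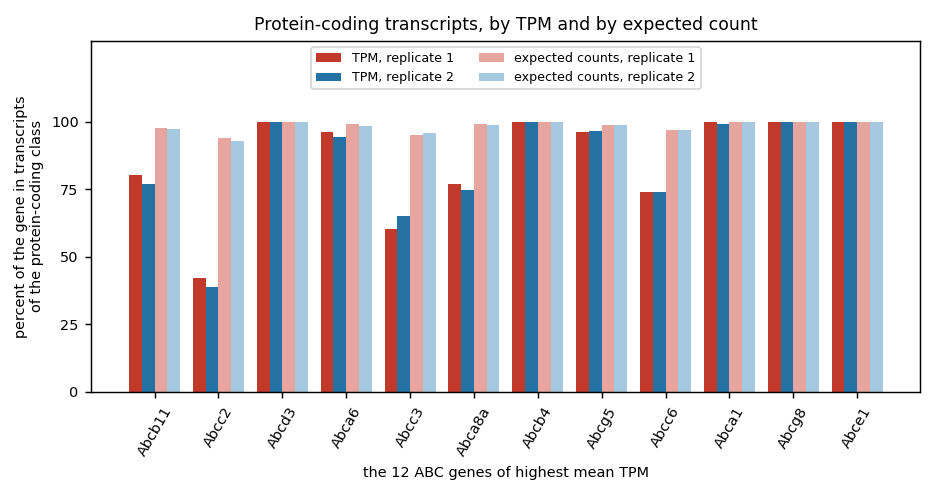
Percent of each gene in transcripts of the protein-coding class, by TPM (dark bars) and by expected count (pale bars), in replicate 1 (red) and replicate 2 (blue), for the 12 ABC genes of highest mean TPM. Abcc2 is under 50% by TPM and over 90% by count in both libraries.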

How the data were processed

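Both libraries were quantified separately by the authors against mm10 and GENCODE M4, per the notes deposited with the files. The counting software is not given in the sources used here. Deposited expected counts are unnormalised estimates, and the deposited TPM, with 2 decimals, covers every feature with the spike-ins. The deposited FPKM served as an alternative threshold, and the deposited percent gives each transcript's part of its gene. Symbols and classes came from GENCODE M21 of the same assembly, which matched 42462 of 43346 mouse genes and missed 884. TPM was rescaled to the same total over nuclear protein-coding genes.

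Counts were rounded, and edgeR 4.0.16 in R 4.3.3 gave TMM factors of 0.950 and 1.05 for replicates 1 and 2. The pseudocount of 0.5 CPM equals 39.8 and 37.4 counts. DESeq2 1.42.0 size factors were an alternative. Other steps used Python 3.11.15, pandas 2.3.3 and numpy 2.4.6. The ratio step was tested on simulated data with Poisson noise, a pseudocount of 0.05 CPM and no TMM scaling. The setting used for the reported ratios was not itself simulated. Members and lists were chosen with earlier results of these data known. Named are all pumps, the 3 highest members per subfamily, members over 2-fold apart, members with no count, and examples by role. Values of some single members are not reported here.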

Additional observations from a re-analysis of the deposited data

How the results depend on the processing

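The number of members detected stayed within 1.5 times of 37: 26 by endogenous TPM, 42 at 0.1 TPM, 25 at 10 TPM, 42 at 10 expected counts, 33 at an FPKM of 1, 39 with Tap1, Tap2 and Cftr, and 37 to 38 by single library. The family share, 0.319% of TPM, depends on what is divided by: 0.0416% of endogenous TPM, 0.290% with mitochondrially encoded genes and 0.720% of expected counts, and 0.317% to 0.321% leaving out either library. The log2 ratio of canalicular over basolateral pumps, 1.94, was 2.36 without the highest member of each list, 1.23 by medians, 1.48 by expected counts and 1.90 with protein-coding transcripts only, an alternative chosen after seeing the data, and 1.66 to 2.23 leaving out either library. Members over 2-fold apart numbered 1, but 2 with spike-in scaling (Abcb1b and Abcc4), 5 by deposited TPM (Abcb1b, Abcc1, Abcc3, Abcc4, Abcc10) and 0 at a mean of 10 TPM, where Abcb1b is not tested. All 5 were higher in replicate 2. Of all 11478 measured genes, 2.54% were over 2-fold apart, 4.14% with spike-in scaling and 13.5% by deposited TPM. At a mean of 10 TPM the share was 2.02% of 6531 genes. The counts of members thus rose and fell with the background. The median ratio of members, -0.07, was -0.38 with spike-in scaling and -0.64 by deposited TPM, which put the median of all genes at -0.30 and -0.54. It was -0.19 by nuclear protein-coding TPM, also chosen after seeing the data, and changed sign at 0.0020 after correction for GC and length and at 0.016 at a mean of 10 TPM; the cause was not tested. No paired analysis was possible because both libraries belong to the same group. Depth limits the members with 10 or fewer counts in both libraries, of which there were 8.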
